A study of Schmidtea mediterranea with 24 samples.

Results

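Of 28069 transcript contigs counted in planarian tail fragments, 106 fell at least 4-fold by 2 days after amputation and were still at least 4-fold lower at 4 days in control animals. A contig is an assembled transcript sequence and is named by its ID, since the files pair no ID with a gene name. Members were chosen on the means of the 4 control libraries at each time, in CPM, the counts of a contig scaled to a fixed library total. A contig needed at least 5 CPM at 0 h and a mean at 2 days and at 4 days of at most 25% of it (a 4-fold fall). Contigs that had fallen at least 16-fold at both later times were left out, which removed 55 further contigs that were nearly lost. These control values chose the contigs, so the control falls below are a description and carry no test. The libraries of egr-2 RNAi fragments were not used in the choice.

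The animals belonged to CIW4, an asexual clonal line of Schmidtea mediterranea, a planarian flatworm that regrows any missing body part. All animals were fed double-stranded RNA in 6 feedings of 2 µg, directed against egr-2 in the treated animals and against egfp, a jellyfish gene the worm does not have, in the controls. They were then starved for 7 days and amputated. RNA came from the anterior part of the tail fragment, the end that faces the wound, at 0 h, 2 days and 4 days. The 6 groups, control and egr-2 RNAi at each time, have 4 replicates each, and a replicate pooled 10 fragments of a clonal line, so the spread between replicates is a spread between pools. Total counts per library ran from 13449251 to 30829850.

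Planarian regeneration rests on neoblasts, dividing cells scattered through the body that are the source of all new tissue. After a cut the wound closes, neoblasts proliferate near it and a blastema of new tissue forms, while the old tissue of the fragment is remodelled to the proportions of a smaller animal. RNA interference by feeding lowers the targeted transcript throughout the body. The gene egr-2 belongs by its name to the early growth response family of zinc-finger transcription factors, known in many animals as genes switched on quickly by outside signals. The transcript of egr-2 was not identified among the contig IDs, so its fall was not checked, nor was the tissue checked against markers. A lower CPM in this bulk tissue is a lower share of the library total. It can mean fewer cells of a type, less RNA per cell or more counts from other contigs, and these cannot be told apart.

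The 106 contigs took a larger share of the counts at 0 h than at the later times. Together they took 5.56% ± 0.236 of all counts in control libraries at 0 h, 0.533% ± 0.108 at 2 days and 0.185% ± 0.0198 at 4 days (SD, n = 4). The shares in egr-2 RNAi libraries were 5.50% ± 0.384, 0.410% ± 0.0404 and 0.180% ± 0.0120 (SD, n = 4). Over both conditions the lowest 0 h library, with 5.03%, stood far above the highest 2 day library, with 0.670%. The lowest 2 day library, with 0.364%, stood above the highest 4 day library, with 0.213%. In control the rule had set the fall from 0 h. Among the 100 most abundant contigs at 0 h in control there were 11 of the 106, and at 2 and at 4 days there were 0. The mean level at 0 h ran from 5.80 to 7502 CPM with a median of 68.0 CPM. The level was at least 1000 CPM for 12 contigs and below 50 CPM for 46, and the 10 most abundant gave 70.7% of the summed CPM.

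The size of the fall differed among the members. In control fragments the median fall was 9.14-fold at 2 days, with a range of 4.01-fold to 128-fold, and 9.10-fold at 4 days, with a range of 4.03-fold to 1387-fold. Both falls were under 16-fold for 61 contigs. The rule also admitted 28 contigs that had fallen at least 16-fold by 4 days and 17 that had done so at 2 days but not at 4 days, so "moderate" describes only the first 61. At 4 days 20 contigs were at 1% or less of their 0 h level, that is at least 100-fold lower.

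Between 2 and 4 days the members took 3 different courses. The courses were drawn after the values were seen, from control means alone and at a round limit of 2-fold. From 2 to 4 days 29 contigs fell at least a further 2-fold, 59 stayed within 2-fold, and 18 rose at least 2-fold without coming back to 25% of the 0 h level. They are called here the further-fall, the level and the returning contigs. The limits of the rule, which admit a 16-fold fall at 1 of the later times only, bear on how many contigs fall into each course.

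**Figure D1:**
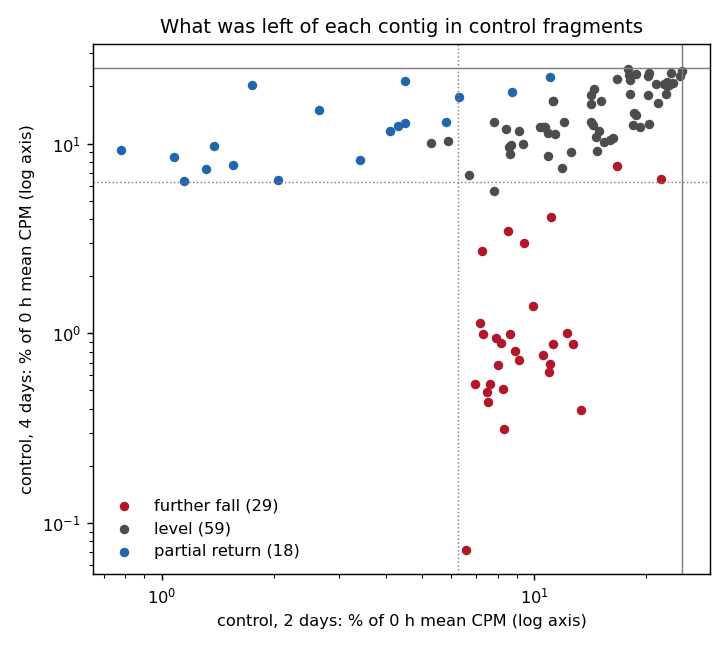
Each point is 1 of the 106 contigs, placed by what was left of its 0 h mean CPM in control fragments at 2 days (x axis) and 4 days (y axis), in percent on log axes, coloured by course. Solid lines mark 25% and dotted lines 6.25%. The 29 further-fall contigs reach down to 0.0721% at 4 days, and the 18 returning contigs lie at 0.781% to 11.1% at 2 days and at 6.37% to 22.4% at 4 days.

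The further-fall contigs were the abundant ones. They made up 80.1% of the members' summed CPM in control fragments at 0 h, 75.6% at 2 days and 19.1% at 4 days, and 10 of them had at least 1000 CPM at 0 h. Their median level per kilobase of contig at 0 h was 1142 RPKM, that is CPM divided by the contig length in kilobases, against 38.7 RPKM for the level and 76.4 RPKM for the returning contigs. They were also the shortest, with a median contig length of 661 bases against 1219 and 1018 bases, and 11 of the 29 were 500 bases or less against 7 of 59 and 3 of 18. Over all 106 the median length was 996 bases, while it was 1582 bases over the 11601 contigs with at least 5 CPM at 0 h in control. These lengths and levels are descriptions of assembled contigs, which may be parts of transcripts.

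The egr-2 RNAi libraries gave the same measurement in samples the rule had not used. All 106 contigs passed the filter on low counts, which their level at 0 h nearly assured. From 0 h to 2 days 106 of 106 fell in egr-2 RNAi fragments (edgeR quasi-likelihood test over 19761 contigs, adjusted p below 0.05), where 24.6% of all tested contigs were called lower. At 4 days 106 of 106 were called lower than at 0 h, against 24.9% of all tested. A call together with a fall of at least 4-fold was reached by 105 of 106 at 2 days, against 1.93% of all tested, and by 106 of 106 at 4 days, against 1.61%. The median log2 change of the members was -3.83 at 2 days and -3.80 at 4 days, while it was 0.02 and 0.04 over all tested contigs. The counts of contigs called lower, without the 4-fold limit, stayed at 106 when any single library of the comparison was left out.

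The fitted changes are set on scaling factors that put the 0 h libraries lower (mean factor 0.898 in control and 0.858 in egr-2 RNAi) than the later ones (1.05 to 1.08). With library totals as the only scaling, the median log2 change over all tested contigs shifted by 0.29 at 2 days and 0.34 at 4 days in egr-2 RNAi fragments, and all 106 contigs remained called lower. By the plain CPM means, the limit of a 4-fold fall at both times was met in egr-2 RNAi fragments by 97 of the 106, against 1.48% of the contigs with at least 5 CPM at 0 h in egr-2 RNAi. Of those 97, 79 met the whole rule and 18 had fallen at least 16-fold at both times. The other 9 were all level contigs. Both limits were missed by dd_Smed_v6_13106_0_1, with falls of 3.25-fold and 3.67-fold, and by dd_Smed_v6_950_0_1, with 3.77-fold and 3.83-fold. The fall of 3.25-fold was the smallest. In egr-2 RNAi replicate 1 at 0 h these 2 contigs had 0.903 and 182 CPM, against a mean of 6.21 and 384 CPM in its mates. In egr-2 RNAi the median fall was 11.7-fold at 2 days and 11.1-fold at 4 days.

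The further fall and the return drawn in control were seen again in egr-2 RNAi fragments. From 2 to 4 days, 28 of the 29 further-fall contigs fell (adjusted p below 0.05 over all tested), where 14.4% of all tested contigs were called lower. The 29th, dd_Smed_v6_10389_0_1, stood at 0.416 CPM at 2 days and 0.166 CPM at 4 days (log2 change -1.33, SE 0.53, adjusted p = 0.0645, n = 4 libraries a group in the edgeR fit). Of the 18 returning contigs 17 rose, where 12.3% of all tested were called higher. The exception, dd_Smed_v6_3860_0_1, stood at 0.136 and 0.355 CPM (log2 change 1.49, SE 0.61, adjusted p = 0.0723 in the edgeR fit). Both exceptions were chosen after their values were seen, and both lie under 1 CPM at these times. Of the 59 level contigs 6 (10.2%) were called higher, 10 (16.9%) lower and 43 not called. Over all tested contigs the shares were similar, 12.3% higher and 14.4% lower. The calls therefore do not set the level contigs apart, and a missing call does not show that a contig stayed level. The median log2 change was -3.37 for the further-fall, -0.02 for the level and 2.11 for the returning contigs. Across the 106 contigs, which are not replicates, the log2 ratio of 4 day to 2 day mean CPM was compared between control and egr-2 RNAi. Pearson's r was 0.967 and Spearman's rho 0.880, and the 2 conditions share no library. The control means in this ratio also chose the contigs and drew the courses. No correlation over all tested contigs was computed, so nothing is read from its size.

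**Figure D2:**
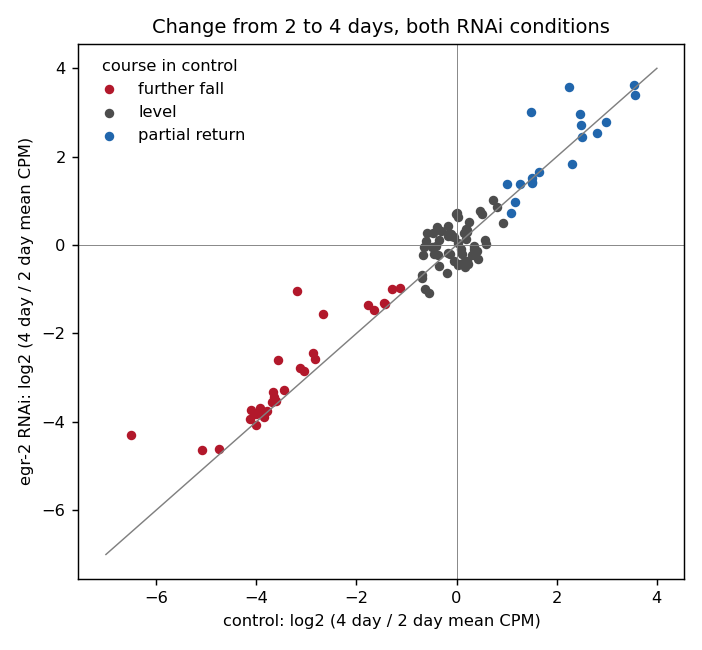
Each point is 1 of the 106 contigs, with the log2 ratio of the 4 day to the 2 day mean CPM in control (x axis) and egr-2 RNAi (y axis), 4 libraries each, coloured by the course in control. The diagonal marks equal ratios. The median distance between the ratios of the 2 conditions was 0.32 on the log2 scale and the largest 2.21.

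Summed levels show the courses library by library. The further-fall contigs summed to between 40990 and 46530 CPM in the control libraries at 0 h, between 3010 and 5463 CPM at 2 days and between 288 and 428 CPM at 4 days. In egr-2 RNAi they summed to between 36540 and 46560, between 2114 and 3258 and between 304 and 376 CPM. No 2 times overlapped in egr-2 RNAi. None did in control either, where the rule and the course limit had chosen the contigs for these falls. The level contigs went from 9720 ± 916 CPM at 0 h to 1258 ± 122 and 1325 ± 122 CPM in control, and from 12280 ± 436 to 1459 ± 105 and 1365 ± 70.7 CPM in egr-2 RNAi (SD, n = 4). Their sums at 2 and 4 days overlapped in both conditions. The returning contigs went from 1347 ± 397 CPM at 0 h to 42.4 ± 10.1 and back up to 174.5 ± 34.7 CPM in control, and from 973 ± 107 to 25.4 ± 2.65 and 112 ± 18.1 CPM in egr-2 RNAi (SD, n = 4).

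**Figure D3:**
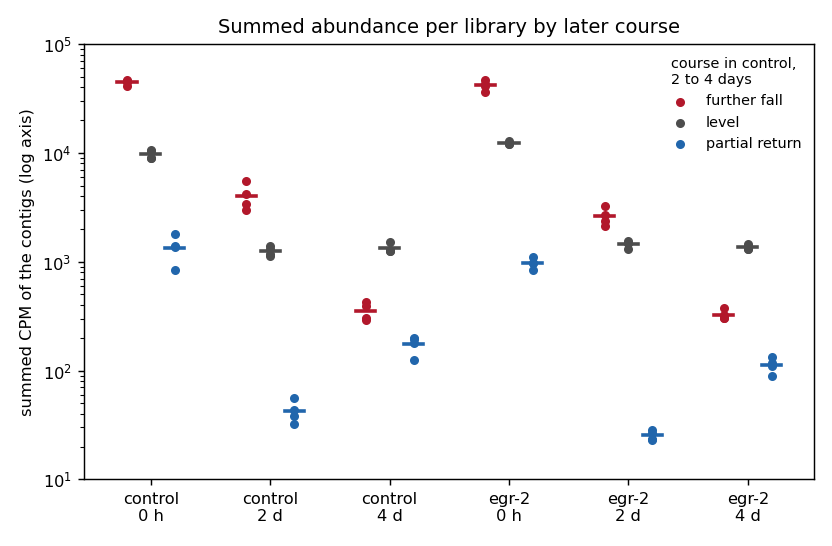
Summed CPM of the 29 further-fall, 59 level and 18 returning contigs (labelled partial return) in each of the 24 libraries, on a log axis, with points for libraries and bars for group means. The further-fall sums drop at each step, the level sums stay between 1136 and 1543 CPM at 2 and 4 days, and the returning sums lie at 23.2 to 55.9 CPM at 2 days and at 88.8 to 197 CPM at 4 days.

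The 2 contigs with the highest level per kilobase at 0 h were both of the further-fall course. The first, dd_Smed_v6_2_1_1 of 395 bases, averaged 15550 RPKM at 0 h in control. The control CPM of this contig was 6524, 5629, 6356 and 6059 at 0 h, then 608, 812, 1015 and 579 at 2 days, then 74.9, 56.8, 70.9 and 43.7 at 4 days. In egr-2 RNAi its CPM was 7516, 6739, 5899 and 5645, then 521, 401, 646 and 431, then 32.9, 55.8, 47.7 and 36.2. The times did not overlap in egr-2 RNAi, nor in control, where the rule chose the contig for its falls. The log2 change from 0 h to 4 days in egr-2 RNAi was -7.57 (SE 0.23, adjusted p = 8.23e-21, edgeR).

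The second, dd_Smed_v6_76_0_1 of 661 bases, averaged 9904 RPKM at 0 h in control. It stood at 6546 ± 394, 544 ± 156 and 20.4 ± 7.13 CPM in control and at 6229 ± 747, 328 ± 67.3 and 13.5 ± 4.81 CPM in egr-2 RNAi at 0 h, 2 and 4 days (SD, n = 4). It had among the members the largest fall from 2 to 4 days in egr-2 RNAi, a log2 change of -4.66 (SE 0.23, adjusted p = 2.69e-14, edgeR). The next largest was that of dd_Smed_v6_12688_0_1 of 601 bases, from 2.46, 1.09, 1.64 and 1.04 CPM at 2 days to 0.0676, 0, 0.145 and 0.0358 CPM at 4 days (log2 change -4.50, SE 0.50, adjusted p = 6.05e-08, edgeR). Its 4 day values rest on a handful of reads a library.

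From 0 h to 4 days in egr-2 RNAi the largest fall was that of dd_Smed_v6_496_0_1, of 390 bases. It went from 54.0, 54.9, 52.0 and 53.5 CPM to 0.0338, 0.154, 0.0364 and 0.179 CPM (log2 change -9.33, SE 0.25, adjusted p = 1.81e-21, edgeR). In control it went from 33.9, 33.8, 28.4 and 42.5 CPM to 0, 0.0660, 0 and 0.0339 CPM, which at 4 days is a few reads or none a library. The smallest falls over this interval belonged to 2 level contigs. In egr-2 RNAi dd_Smed_v6_4336_0_1, of 233 bases, went from 21.0 ± 5.04 to 6.00 ± 0.365 CPM (SD, n = 4; log2 change -2.14, SE 0.14, adjusted p = 1.96e-13, edgeR). For dd_Smed_v6_1473_0_1, of 2060 bases, the change was from 385 ± 48.7 to 109 ± 11.1 CPM (SD, n = 4; log2 change -2.16, SE 0.11, adjusted p = 4.67e-16, edgeR).

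The largest rises from 2 to 4 days in egr-2 RNAi among the members were those of the returning contigs dd_Smed_v6_1320_0_1, of 680 bases, and dd_Smed_v6_3759_0_1, of 2856 bases. In egr-2 RNAi dd_Smed_v6_3759_0_1 had 79.1, 103, 120 and 75.2 CPM at 0 h, 1.17, 1.33, 2.02 and 1.99 CPM at 2 days and 17.4, 22.8, 18.9 and 21.0 CPM at 4 days. The 3 times did not overlap, and the rise had a log2 change of 3.55 (SE 0.36, adjusted p = 1.62e-08, edgeR). Its control values were 140 ± 60.7, 2.44 ± 0.903 and 28.4 ± 6.38 CPM (SD, n = 4). For dd_Smed_v6_1320_0_1 the egr-2 RNAi CPM was 20.6, 22.4, 68.6 and 61.6 at 0 h, 0.907, 0.296, 0.327 and 0.568 at 2 days and 1.83, 7.72, 8.72 and 6.84 at 4 days (log2 change from 2 to 4 days 3.56, SE 0.81, adjusted p = 0.00132, edgeR). In control it stood at 66.5 ± 23.8, 2.99 ± 2.01 and 14.2 ± 5.75 CPM (SD, n = 4).

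Under egr-2 RNAi at 0 h, 20 of the 106 contigs were called higher than control, against 4.25% of all tested, and 9 lower, against 1.44% (edgeR, adjusted p below 0.05). The control values in this difference also chose the contigs, so nothing is read from these counts. Of the 20 higher, 18 were level contigs and 2 further-fall contigs. At 0 h the level contigs summed to between 11950 and 12910 CPM in egr-2 RNAi. In control they summed to between 8896 and 10700 CPM, with no overlap. Abundant contigs weigh most in this sum: dd_Smed_v6_122_0_1 alone had a mean of 1753 CPM in control, against 2391 CPM in egr-2 RNAi. Contig by contig, the median ratio of egr-2 RNAi to control was 1.06, and 27 of the 59 level contigs were below control. The rule used these control values, so nothing is read from the non-overlap. Of the 9 lower, 5 were level, 2 further-fall and 2 returning contigs. The count of 9 was 14, 3 and 4 without control replicates 1, 3 and 4 and 1 without egr-2 RNAi replicate 4. A fit restricted to the 0 h libraries gave 2.

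**Figure D4:**
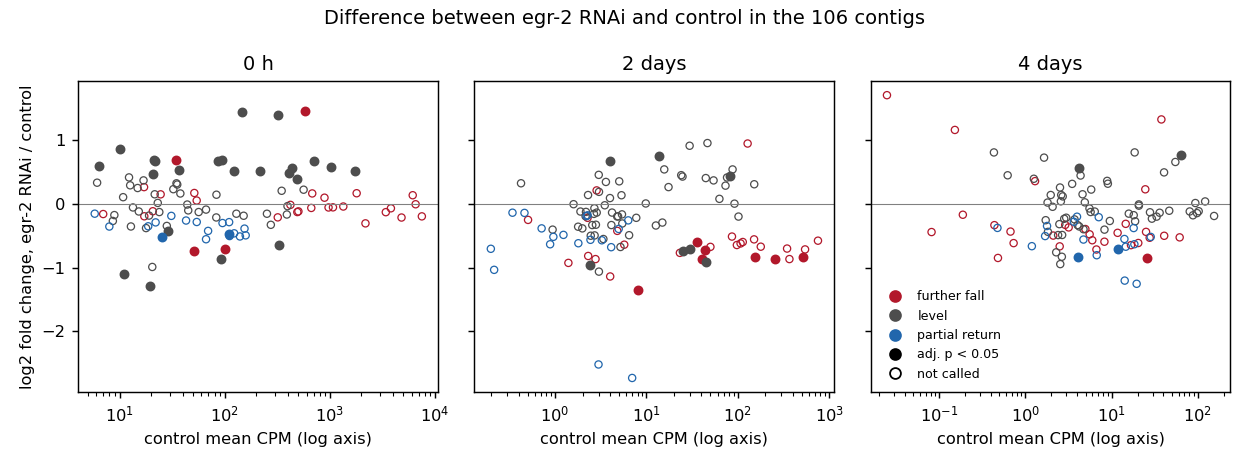
Fitted log2 fold change of egr-2 RNAi over control (y axis) against the control mean CPM (x axis, log axis) for the 106 contigs at 0 h, 2 days and 4 days, coloured by course, with filled points for an adjusted p below 0.05. Filled points number 20 above and 9 below 0 at 0 h, 3 and 11 at 2 days, and 2 and 3 at 4 days.

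The largest called rises at 0 h were those of dd_Smed_v6_8_0_1, of 512 bases, and dd_Smed_v6_199_0_1, of 1390 bases. At 0 h dd_Smed_v6_199_0_1 had 52.6, 213, 37.1 and 282 CPM in control, against 252, 279, 429 and 587 CPM in egr-2 RNAi (log2 fold change 1.45, SE 0.37, adjusted p = 0.0193, edgeR). For dd_Smed_v6_8_0_1 the values were 175, 779, 102.5 and 1282 CPM in control, against 975, 1014, 1716 and 2493 CPM in egr-2 RNAi (log2 fold change 1.46, SE 0.44, adjusted p = 0.0490, edgeR). Both sets of values overlap between conditions, and control replicates 1 and 3 are low in both contigs. The call of dd_Smed_v6_8_0_1 was lost in 11 of 16 alternatives and that of dd_Smed_v6_199_0_1 in 4 of 16, with adjusted p of up to 0.298 and 0.231 when the fit held the 0 h libraries alone. A further contig, dd_Smed_v6_42_0_1, chosen after its values were seen, had the same pattern, with 105, 452, 62.1 and 673 CPM in control, against 612, 613, 820 and 1252 CPM in egr-2 RNAi. These 3 were the only members at least 4-fold below their group mates in control replicate 3 at 0 h.

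The largest called falls at 0 h were those of dd_Smed_v6_3421_0_1, of 859 bases, and dd_Smed_v6_13106_0_1, of 2252 bases. For dd_Smed_v6_3421_0_1 CPM was 16.1, 20.2, 21.5 and 20.6 in control and 1.49, 12.1, 13 and 4.09 in egr-2 RNAi (log2 fold change -1.29, SE 0.31, adjusted p = 0.0112, edgeR). For dd_Smed_v6_13106_0_1 it was 9.67, 12.4, 12.5 and 9.84 in control and 0.903, 6.35, 9.45 and 2.82 in egr-2 RNAi (log2 fold change -1.11, SE 0.31, adjusted p = 0.0323, edgeR). No egr-2 RNAi value of either contig reached the lowest control value. In egr-2 RNAi replicate 1 at 0 h, 3 members were at least 4-fold below their mates, these 2 and dd_Smed_v6_17988_0_1 (1.65 CPM against 14.9, 17.9 and 4.87 CPM). Without that library the log2 fold changes were -0.97 for dd_Smed_v6_3421_0_1 (adjusted p = 0.00999) and -0.79 for dd_Smed_v6_13106_0_1 (adjusted p = 0.0455), by edgeR. The first call was lost without egr-2 RNAi replicate 4 and when the fit held the 0 h libraries alone (adjusted p = 0.173), and the second in 6 of 16 alternatives, with an adjusted p of up to 0.243.

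At 2 days 3 contigs were called higher under egr-2 RNAi, against 0.177% of all tested, and 11 lower, against 0.187%. The control values at 2 days also chose the contigs and drew the courses, so nothing is read from these counts. Of the 11, 7 were further-fall contigs. In control replicate 3 at 2 days the further-fall contigs summed to 5463 CPM, against 3417, 4228 and 3010 CPM in its mates. In egr-2 RNAi replicate 3 at 2 days they were also highest, with 3258 CPM, against 2693, 2114 and 2384 CPM. The level contigs summed to 1179 CPM in control replicate 3, against 1401, 1315 and 1136 CPM in its mates. Without control replicate 3, 1 contig was called lower and 0 higher. Leaving out control replicate 2 gave 3 lower calls, and leaving out egr-2 RNAi replicates 1, 2, 3 and 4 gave 3, 1, 22 and 0. The 3 higher calls became 0 without egr-2 RNAi replicate 1, 2 or 4, 8 without replicate 3 and 5 without control replicate 1. The authors' deposited table called 22 of the 106 lower and 6 higher at 2 days, at a false discovery rate below 0.05, against 0.595% and 0.547% of its contigs. At 0 h the authors' deposited table called 22 of the 106 higher, against 5.42%, and 10 lower, against 3.05%. At 4 days the authors' deposited table called 4 higher, against 2.55%, and 9 lower, against 1.24%.

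The largest called differences at 2 days were found in 4 contigs of 286 to 1493 bases. In dd_Smed_v6_455_0_1, of 435 bases, CPM was 8.50, 9.38, 9.67 and 4.43 in control and 4.67, 1.78, 2.83 and 3.27 in egr-2 RNAi (log2 fold change -1.36, SE 0.26, adjusted p = 0.0166, edgeR). In dd_Smed_v6_13209_0_1, of 1493 bases, it was 2.27, 2.62, 2.87 and 1.80 in control and 1.23, 1.24, 1.03 and 1.32 in egr-2 RNAi (log2 fold change -0.96, SE 0.20, adjusted p = 0.0292, edgeR). The groups of the first overlap in 1 library and those of the second do not. The higher contigs were dd_Smed_v6_314_0_1, of 389 bases (15.6, 14.96, 10.5 and 13.8 CPM in control, against 24.04, 23.9, 19.2 and 24.4 CPM in egr-2 RNAi), and dd_Smed_v6_465_0_1, of 286 bases (4.53, 3.95, 3.15 and 4.31 CPM in control, against 7.65, 5.83, 6.00 and 5.87 CPM in egr-2 RNAi). Their log2 fold changes were 0.76 (SE 0.15, adjusted p = 0.0185) and 0.68 (SE 0.14, adjusted p = 0.0292) in the edgeR fit, and neither overlaps. Each of the 4 calls was lost without control replicate 3, with adjusted p of 0.121 to 0.176 by edgeR. Each was also lost without egr-2 RNAi replicate 2 and without egr-2 RNAi replicate 4. Of 15 alternatives, the call was lost in 3 for dd_Smed_v6_455_0_1, 5 for dd_Smed_v6_13209_0_1, 4 for dd_Smed_v6_314_0_1 and 5 for dd_Smed_v6_465_0_1.

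At 4 days 2 contigs were called higher, against 1.7% of all tested, and 3 lower, against 0.653%. The control values at 4 days also chose the contigs, and nothing is read from these counts either. The higher ones were dd_Smed_v6_1473_0_1 and dd_Smed_v6_1774_0_1, the latter of 538 bases. For dd_Smed_v6_1473_0_1 CPM at 4 days was 64.9, 56.5, 74.2 and 58.3 in control and 93.6, 117, 117 and 108 in egr-2 RNAi (log2 fold change 0.77, SE 0.11, adjusted p = 7.49e-05, edgeR), without overlap and called in 15 of 15 alternatives. At 2 days no difference was called for it, with 62.9 ± 10.3 CPM in control, against 66.0 ± 7.14 CPM in egr-2 RNAi (SD, n = 4; adjusted p = 0.882, edgeR). Whether its RNAi effect differs between 2 and 4 days was not tested. For dd_Smed_v6_1774_0_1 the values were 5.14, 3.70, 4.35 and 3.43 CPM in control, against 5.82, 7.56, 6.36 and 4.91 CPM in egr-2 RNAi (log2 fold change 0.57, SE 0.15, adjusted p = 0.0311, edgeR), with an overlap, and its call was lost in 5 of 15 alternatives.

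The largest called falls at 4 days were those of dd_Smed_v6_51_1_1, of 830 bases, and dd_Smed_v6_14173_0_1, of 1878 bases. In dd_Smed_v6_14173_0_1, a returning contig, CPM was 3.88, 4.29, 4.64 and 3.36 in control and 2.57, 2.38, 2.91 and 1.25 in egr-2 RNAi (log2 fold change -0.83, SE 0.18, adjusted p = 0.00682, edgeR), with no overlap and a call in 15 of 15 alternatives. In dd_Smed_v6_51_1_1, a further-fall contig, it was 32.8, 21.3, 29.3 and 21.0 in control and 11.8, 20.7, 17.0 and 8.57 in egr-2 RNAi (log2 fold change -0.86, SE 0.22, adjusted p = 0.0365, edgeR). All 4 egr-2 RNAi values lie below the lowest control value, and the call was lost in 5 of 15 alternatives. Without single libraries the 4 day counts were 1 higher (without control replicate 2 or 4, or egr-2 RNAi replicate 1, 2 or 3) and 1 lower (without control replicate 1, or egr-2 RNAi replicate 1 or 3).

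**Figure D5:**
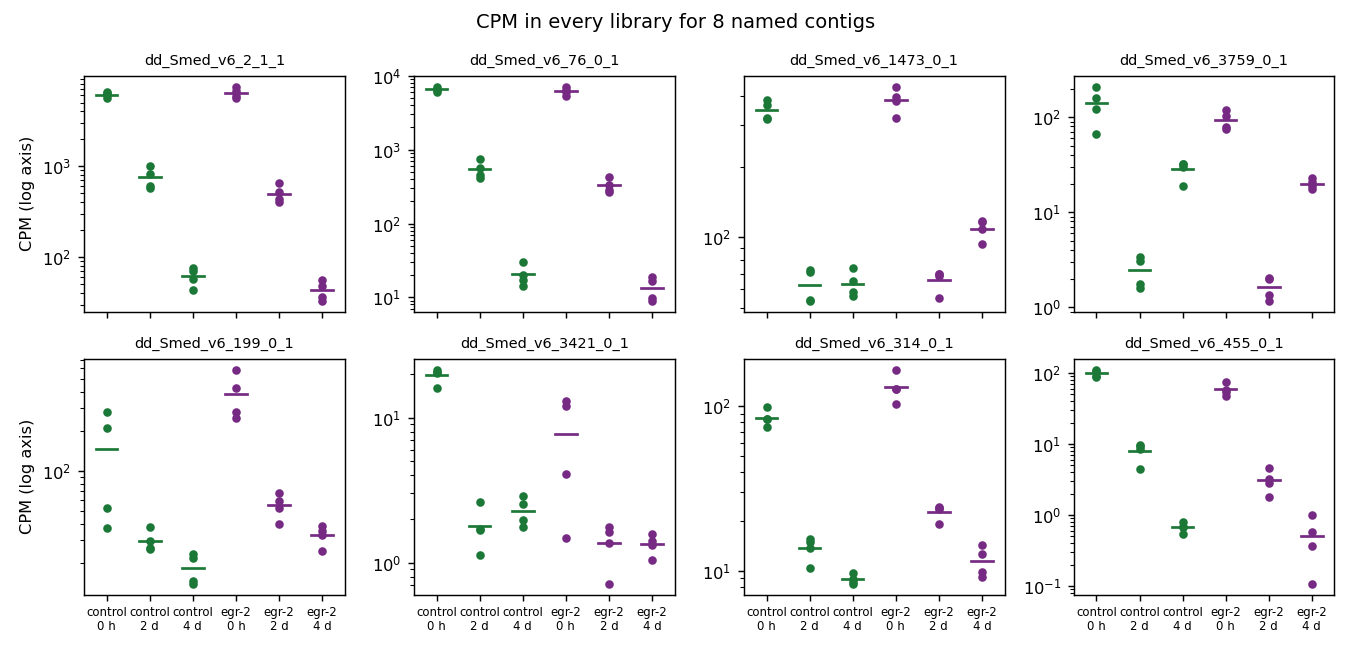
CPM of 8 named contigs in each of the 24 libraries, on log axes, with green points for control, purple points for egr-2 RNAi and bars for group means. The panels of dd_Smed_v6_2_1_1 and dd_Smed_v6_76_0_1 show the further fall, that of dd_Smed_v6_3759_0_1 the partial return, and that of dd_Smed_v6_1473_0_1 the higher 4 day level under egr-2 RNAi, 109 against 63.5 CPM.

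At 1 or more times 43 of the 106 contigs had a call between the RNAi conditions, which is 40.6%, against 7.43% of all tested contigs. Each of these calls sets egr-2 RNAi against control values that chose the contigs, so the share is a description from which nothing is read. At more than 1 time 5 contigs were called, each in the same direction. They were dd_Smed_v6_314_0_1, dd_Smed_v6_465_0_1 and dd_Smed_v6_634_0_1, higher at 0 h and 2 days, dd_Smed_v6_1774_0_1, higher at 0 h and 4 days, and dd_Smed_v6_455_0_1, lower at 0 h and 2 days.

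The 55 nearly lost contigs are given beside the members as a description, and no difference between them was tested. In egr-2 RNAi 15 of the 55 (27.3%) rose and 9 (16.4%) fell from 2 to 4 days. Of the 106 members 23 (21.7%) rose and 38 (35.8%) fell, and of all tested contigs 12.3% rose and 14.4% fell. The nearly lost contigs took 1.09% ± 0.213 of the counts in control at 0 h (SD, n = 4) and had a median length of 834 bases.

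The members also varied more between replicates than the 11601 contigs with at least 5 CPM at 0 h in control. Those contigs include the members and were not matched to them in level at the later times. The members' median coefficient of variation over the 4 control libraries was 10.5% at 0 h, 23.6% at 2 days and 19.4% at 4 days. For the 11601 contigs it was 6.28%, 5.42% and 6.06%. In egr-2 RNAi the members had 13.5%, 22.3% and 18.02%, against 9.39%, 6.38% and 5.48% for the 11601 contigs. Since the members' levels are low at the later times, counting error is part of this spread, and its share was not tested.

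Contigs of the same component of the assembly can share reads, which applies to 4 members. Of these, dd_Smed_v6_51_0_1 and dd_Smed_v6_51_1_1 are both members and fell alike, from 491 and 4806 CPM at 0 h to 2.51 and 26.1 CPM at 4 days in control. The partner of dd_Smed_v6_122_0_1, which is no member, fell from 475 to 3.49 CPM. In contrast, dd_Smed_v6_214_1_1 fell from 410 to 46.6 CPM while its partner dd_Smed_v6_214_0_1 stood at 69.6, 73.0 and 80.1 CPM at 0 h, 2 and 4 days.

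Near the limits of the rule the contigs form no gap. Just inside the 4-fold limit were dd_Smed_v6_8067_0_1 and dd_Smed_v6_7121_0_1, whose higher later mean was 24.9% and 24.8% of the 0 h level, and just outside were dd_Smed_v6_11947_0_1 with 25.1% and dd_Smed_v6_20_0_1 with 25.5%. At the 16-fold limit the members dd_Smed_v6_5225_0_1 and dd_Smed_v6_2803_0_1 had 6.37% and 6.42%, while dd_Smed_v6_681_0_1 and dd_Smed_v6_5595_0_1, counted as nearly lost, had 6.20% and 6.12%.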

How the data were processed

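The authors deposited raw read counts per contig for 24 libraries, with 1 column per library per the file headers, and contig lengths in bases. The submitters' processing notes name FastQC 0.11.5, Bowtie2 2.3.1, featureCounts and Subread 1.6.3, and the design text names BBDuk and edgeR. For the assembly and for strand in counting, the sources used here state nothing. The authors also deposited for 7 comparisons a log2 fold change, a mean expression on the log2 scale and adjusted p-values (false discovery rates).

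The members, courses and lists were chosen with earlier results of these data known. CPM was computed from column sums, RPKM from CPM and contig length. Tests used edgeR 4.0.16 (R 4.3.3): quasi-likelihood F test, TMM factors, filterByExpr (minimum count 10, minimum total 15), group means over all 24 libraries, Benjamini-Hochberg over 19761 contigs, threshold 0.05. The fit was tested on simulated data. Standard errors were derived from the F statistic. Contigs were named by rank: level per kilobase, largest and smallest changes among members, largest called differences at each time, and nearest to the limits. Alternatives were RLE factors, no scaling factors, other filters, DESeq2 1.42.0, fits of the compared groups, a replicate block and leaving out libraries. Same-numbered replicates were not paired.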

Additional observations from a re-analysis of the deposited data

Results flagged for a closer look

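Of 138 groups of 4 libraries, taken over the summed levels and the named contigs, 6 held 1 library whose value lay far outside the other 3. By chance about 1 group in 20 would. The level contigs summed to 1508 CPM in control replicate 3 at 4 days, against 1253, 1262 and 1277 CPM in its mates. In egr-2 RNAi replicate 4 at 2 days dd_Smed_v6_1473_0_1 had 55.3 CPM, against 68.4, 70.0 and 70.1 CPM. In control replicate 4 at 4 days dd_Smed_v6_3759_0_1 had 19.0 CPM, against 30.2, 32.1 and 32.4 CPM, and dd_Smed_v6_465_0_1 had 2.24 CPM, against 2.85, 2.87 and 2.91 CPM. In egr-2 RNAi at 2 days dd_Smed_v6_314_0_1 had 19.2 CPM in replicate 3, against 23.9, 24.04 and 24.4 CPM, and dd_Smed_v6_465_0_1 had 7.65 CPM in replicate 1, against 5.83, 5.87 and 6.00 CPM.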

How the results depend on the processing

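In egr-2 RNAi all 106 members were called lower at 2 and at 4 days in each alternative fit run, and where the rule was changed the 99 to 118 contigs it gave were all called lower. From 2 to 4 days they ranged from 22 to 26 higher and from 34 to 41 lower. A 4-fold limit between courses, chosen after seeing the data, gave 9 returning contigs, of which 9 were called higher, and 23 further-fall contigs, of which 23 were called lower. Counts between RNAi conditions depended on the fit. Restricting the fit to the libraries compared gave 2 lower at 0 h, 8 higher and 20 lower at 2 days, and 7 higher and 17 lower at 4 days. Leaving out both 0 h libraries numbered 1, also chosen later, gave 19 lower at 0 h. DESeq2 gave 5 higher at 2 days. The replicate block gave 5 higher and 18 lower at 2 days. Same-numbered libraries had correlations of deviations of -0.0648 to 0.108, so the numbers were not taken to pair libraries. Every library of egr-2 RNAi at 4 days correlated best with its own number at 2 days (4 of 4), and in the other comparisons 1 or 2 of 4 did. Without single libraries the counts were 14 to 21 higher and 1 to 14 lower at 0 h. At 2 days they were 0 to 8 higher and 0 to 22 lower, and at 4 days 1 to 3 higher and 1 to 4 lower. The other settings gave 15 to 22 higher at 0 h. The cause of these changes was not tested. The rule gave 103 to 110 contigs without single control libraries, 99 from 10 CPM, 106 on medians (101 shared) and 118 on TMM-normalised CPM (97 shared). Of 324 alternative values for named contigs 274 kept their call and direction, 50 lost the call and 0 changed sign. Levels under about 1 CPM rest on few reads. This limits the 4 day values of some further-fall contigs, among them dd_Smed_v6_496_0_1 and dd_Smed_v6_12688_0_1.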
